A study of Homo sapiens with 6 samples.

Results

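The mitogen-activated protein kinase phosphatases are encoded by DUSP genes, for dual-specificity phosphatase, and 10 of them are described here in HT29 cells treated with YM155: DUSP1, DUSP2, DUSP4, DUSP5, DUSP6, DUSP7, DUSP8, DUSP10, DUSP14 and DUSP16. They were chosen by gene symbol, and all 10 were found among the 26255 genes of the tables. HT29 is an established human colorectal adenocarcinoma line with an activating mutation of BRAF, and YM155 is a small molecule known as an inhibitor of survivin expression. Cells received YM155 or the solvent DMSO, the exposure to YM155 lasting 24 h, and mRNA was sequenced in 3 libraries per treatment. Not given in the sources used here are the dose and whether the libraries of a group came from separate cultures, so p-values measure the spread between these libraries, which may be technical.

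These phosphatases switch off mitogen-activated protein kinases by removing phosphate from the threonine and the tyrosine of the activation loop. The kinases form 3 main branches: ERK, which relays growth factor, RAS and BRAF signals, and JNK and p38, which respond to stress. Many of the phosphatase genes are themselves induced by the kinases that their products silence, which closes a negative feedback loop. DUSP5 (nuclear), DUSP6 and DUSP7 (both cytoplasmic) are selective for ERK, DUSP8, DUSP10 and DUSP16 for JNK and p38, DUSP1, DUSP2 and DUSP4 are inducible nuclear enzymes with broader targets, and DUSP14 is a small atypical enzyme that lacks the amino-terminal kinase-binding domain of the others.

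Levels are in FPKM (fragments per kilobase of exon model, relative to the size of the library), which can be compared between genes. Summed over all genes, FPKM came to 538478 to 563296 in the DMSO libraries and 678699 to 696067 in the YM155 libraries. From the steps between low values, depth was estimated at 24500000 to 27300000 fragments with DMSO and 15150000 to 17950000 with YM155. These estimates give depth only if each library was divided by its own fragment total, and the scaling used is not stated. EPCAM and 8 of the other 9 colon epithelium markers reached the level for testing, while CDX1 did not. No fibroblast, leukocyte or endothelial marker did, the highest value being 1.05 FPKM. CDH17 reached the level only through the YM155 libraries and CDX2 only through the DMSO libraries. With DMSO, CDH17 (mean 0.738 FPKM) lay below the leukocyte marker CD14 (0.927 FPKM). The epithelial label was met by EPCAM, CDH1, VIL1, KRT8, KRT18, KRT19 and KRT20, which exceeded 1 FPKM in every library. The summed colon epithelium markers lay at 4424 to 4630 FPKM with DMSO and 7940 to 8624 FPKM with YM155, and of the 9 tested 7 rose and 2 fell. Summed fibroblast markers were at 0.269 to 0.351 FPKM with DMSO and 0.103 to 0.135 FPKM with YM155, leukocyte markers at 0.773 to 1.14 and 0.319 to 0.706 FPKM, and endothelial markers at 0.0495 to 0.144 and 0.138 to 0.239 FPKM. Their part in the changes below was not tested.

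For sequence context, the 250 bases before the transcription start in RefSeq (GRCh38.p14) were read for the 8 members with an entry, which leaves out DUSP4 and DUSP5. The windows of 3 members that rose are shown. Capitals mark the cAMP response element TGACGTCA, the palindromic site bound by CREB and ATF family factors.
DUSP1, chr5:172771196-172771445, minus strand: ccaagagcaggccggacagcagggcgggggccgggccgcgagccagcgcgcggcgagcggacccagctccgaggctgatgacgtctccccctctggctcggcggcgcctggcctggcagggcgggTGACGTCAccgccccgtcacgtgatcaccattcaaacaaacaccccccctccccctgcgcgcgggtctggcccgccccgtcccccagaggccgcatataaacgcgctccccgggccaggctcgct
DUSP8, chr11:1572272-1572521, minus strand: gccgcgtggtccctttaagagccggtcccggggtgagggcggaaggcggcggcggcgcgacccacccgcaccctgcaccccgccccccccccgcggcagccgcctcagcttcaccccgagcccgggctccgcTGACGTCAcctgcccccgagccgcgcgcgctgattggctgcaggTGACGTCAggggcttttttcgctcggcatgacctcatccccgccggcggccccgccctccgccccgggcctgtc
DUSP7, chr3:52056572-52056821, minus strand: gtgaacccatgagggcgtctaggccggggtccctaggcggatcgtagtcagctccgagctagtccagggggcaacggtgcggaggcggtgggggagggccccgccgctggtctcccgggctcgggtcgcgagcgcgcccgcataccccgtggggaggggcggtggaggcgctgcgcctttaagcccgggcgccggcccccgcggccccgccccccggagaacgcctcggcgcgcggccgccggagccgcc
The element occurred 1 time in the DUSP1 window, 125 bases before the start, and 2 times in the DUSP8 window, 118 and 74 bases before it. The windows of DUSP2, DUSP6, DUSP7, DUSP10, DUSP14 and DUSP16 did not contain these letters. Among all 35116 promoter windows of this length, 1.65% contained the element on either strand. The GC box GGGCGG, a site of the SP1 family, was present in 7 of the 8 members with a window and in 42.6% of all windows, the exception being DUSP6. These shares were not matched for GC content, which had a median of 58.0% over all windows. It was 74.0% to 82.8% for DUSP1, DUSP2, DUSP7, DUSP8, DUSP14 and DUSP16, and 55.2% to 57.2% for DUSP6 and DUSP10. The DUSP1 window also held a TATA box (TATAAA, in 10.7% of all windows) and an E-box (CACGTG, in 6.34%). It further held an antioxidant response element core (TGACNNNGC, in 10.9%), and the DUSP2 window held an E-box. Also sought were the AP-1 site TGANTCA, the ATF4-CEBP element TGATGNAA, the ETS site CCGGAAG and the CArG box. No member window contained any of these, against 6.57%, 3.14%, 8.52% and 1.16% of all windows. Motifs were sought on both strands, and a match describes the letters, not binding.

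With DMSO, DUSP1 (28.7 ± 3.75 FPKM; SD, n = 3), DUSP6 (28.2 ± 1.32) and DUSP14 (21.9 ± 0.895) were the most abundant of the 10 transcripts. DUSP1 and DUSP6 overlapped in level. DUSP2, DUSP5, DUSP4, DUSP16 and DUSP8 followed in this order between 9.51 and 5.28 FPKM, with DUSP4 and DUSP16 overlapping. DUSP7 (2.75 ± 0.372 FPKM) and DUSP10 (0.955 ± 0.275) were the scarcest. With YM155 the order was led by DUSP5 (519 ± 13.6 FPKM), ahead of DUSP1 (64.6 ± 4.98) with no overlap. DUSP8 and DUSP4 came next and overlapped each other, at 32.7 ± 2.74 and 32.3 ± 1.09 FPKM. DUSP7, DUSP14 and DUSP6 lay together at 15.6, 15.2 and 14.6 FPKM, each overlapping its neighbour.

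**Figure D1:**
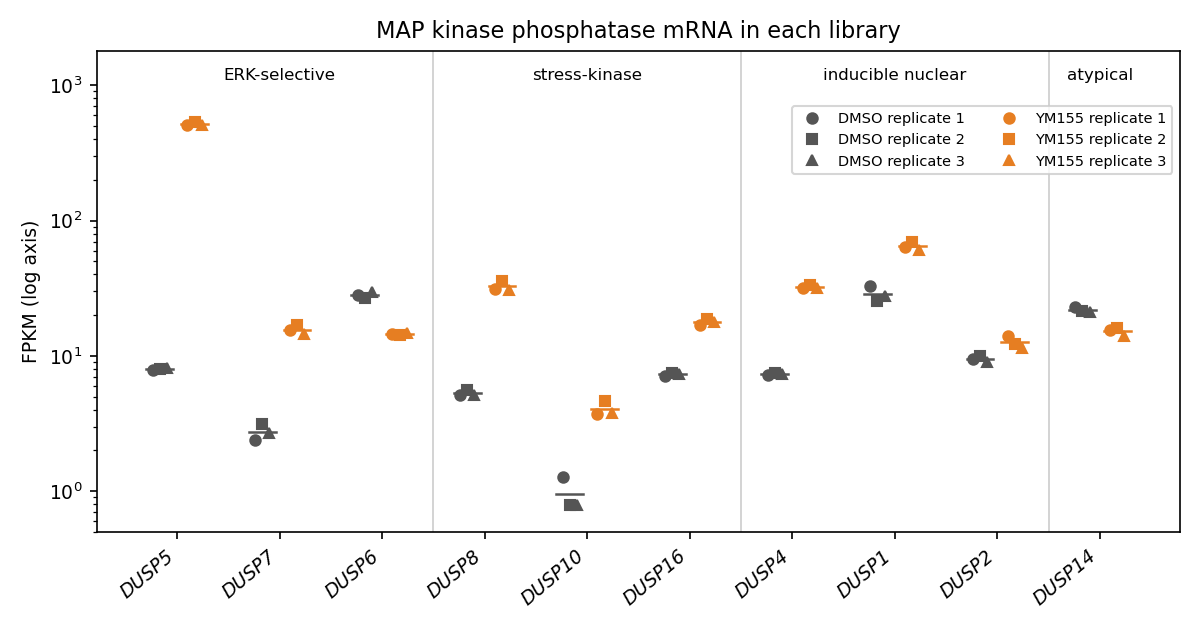
FPKM (log axis) of the 10 phosphatase genes in each of the 6 libraries, grouped by kinase preference, with DMSO in grey, YM155 in orange, a marker shape per replicate and a line at the group mean. The orange points lie above the grey ones for 8 genes and below them for DUSP6 and DUSP14.

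The comparison of YM155 with DMSO asked how the drug changed each phosphatase transcript. All 10 genes met the minimum level, 1 FPKM or more in 3 or more libraries, and were tested with limma on log2(FPKM + 1), with p-values adjusted over all 12035 tested genes. Of the 10, 8 rose and 2 fell at an adjusted p under 0.05, while 43.6% of all tested genes rose and 41.0% fell. The libraries of the groups did not overlap for any of the 10, as was true of 85.9% of all tested genes. The median log2 fold change was 1.28 over the 10 members and 0.0245 over all tested genes. A rise of at least 1 on the log2 scale was seen for 7 members and for 15.9% of all tested genes. The split of all genes depended on scaling, with 5251 higher and 4940 lower on the deposited values, 4171 and 6190 with upper-quartile scaling, 3804 and 6506 when all libraries were given the same sum, 4643 and 5487 with quantile normalization, and 5434 and 4768 with median-of-ratios scaling. Across all genes, the median log2 fold change shifted by -0.23, -0.29, -0.11 and 0.0340 under these 4 settings. In bulk libraries such as these, fewer expressing cells and less RNA per cell cannot be told apart.

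**Figure D2:**
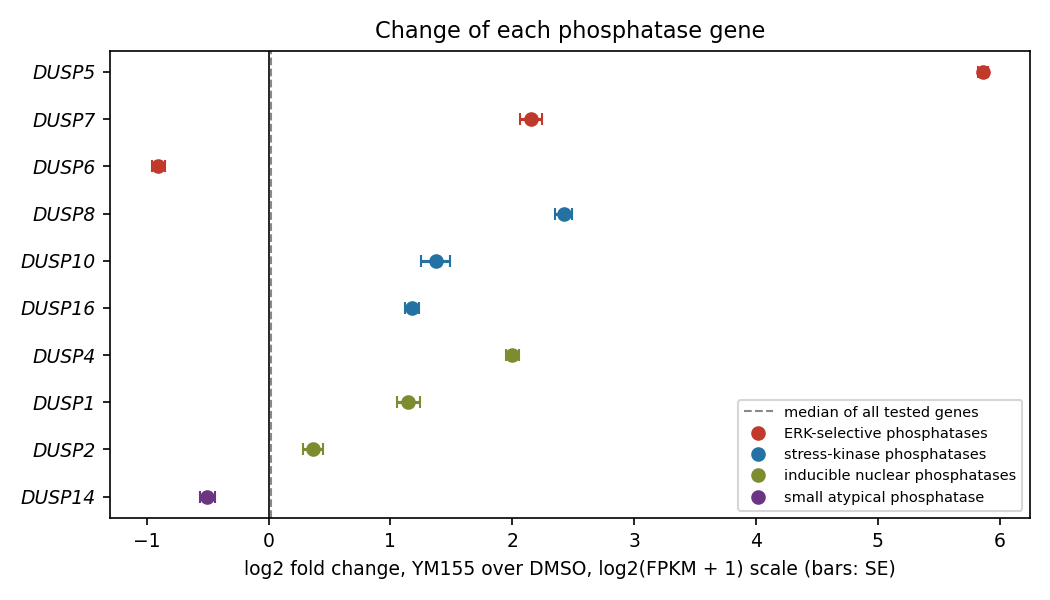
Log2 fold change of each phosphatase gene, YM155 over DMSO, on the log2(FPKM + 1) scale with its SE, coloured by class. DUSP5 stands at 5.86, the other risers lie between 0.37 and 2.42, and DUSP14 and DUSP6 lie below 0, at -0.50 and -0.91.

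The 3 ERK-selective genes did not move together: DUSP5 rose steeply, DUSP7 rose moderately and DUSP6 fell. DUSP5, the nuclear ERK phosphatase and itself a target of ERK signalling, was at 7.80, 7.93 and 8.11 FPKM in the DMSO libraries and at 512, 535 and 511 FPKM in the YM155 libraries. Every YM155 library thus lay far above every DMSO library, and the spread within each group was small. The rise was 65.3-fold (log2 fold change 5.86, SE 0.04, adjusted p = 8.5e-12 by limma), which ranked DUSP5 at position 2 among all tested genes by log2 fold change. RefSeq names 2 pseudogenes after DUSP5, and the 1 listed in the tables stayed at or below 0.0900 FPKM.

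DUSP7, a cytoplasmic ERK phosphatase closely related to DUSP6, measured 2.41, 3.15 and 2.69 FPKM in the DMSO libraries against 15.4, 16.9 and 14.6 FPKM in the YM155 libraries. The groups were well separated, although DUSP7 was scarce at the start. Its rise was 5.69-fold (log2 fold change 2.15, SE 0.09, adjusted p = 3.6e-08 by limma). Behind the DMSO values stood an estimated 66 to 86 fragments per kilobase of transcript, and behind the YM155 values 227 to 304.

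DUSP6, the cytoplasmic ERK phosphatase and a classical readout of ERK activity, measured 28.0, 26.9 and 29.6 FPKM in the DMSO libraries against 14.6, 14.2 and 14.9 FPKM in the YM155 libraries. All YM155 libraries lay below all DMSO libraries. The fall was 1.93-fold (log2 fold change -0.91, SE 0.05, adjusted p = 3.1e-07 by limma), and the log2 fold change lay between -1.21 and -0.87 in all alternatives run. Exons of 1 antisense gene overlap those of DUSP6 in GENCODE, and the use of strand in quantification is not stated in the labels or notes, so reads from the 2 strands may not be separated. DUSP9, a further ERK-selective phosphatase gene outside the 10 members, was listed at 0 in 5 of 6 libraries and at 0.0503 FPKM in DMSO replicate 2.

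All 3 stress-kinase phosphatase genes rose. DUSP8, which encodes a phosphatase of JNK and p38, measured 5.11, 5.60 and 5.14 FPKM in the DMSO libraries against 31.3, 35.8 and 30.9 FPKM in the YM155 libraries. The groups were clearly apart, and the YM155 libraries spread more widely than the DMSO libraries. The rise was 6.19-fold (log2 fold change 2.42, SE 0.07, adjusted p = 4.9e-09 by limma). RefSeq names 3 pseudogenes after DUSP8, none of them a row of the tables, so shared reads could not be assessed. DUSP8 is also the member whose window, printed above, holds 2 cAMP response elements.

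DUSP16, a JNK phosphatase that moves between nucleus and cytoplasm, measured 7.06, 7.48 and 7.33 FPKM in the DMSO libraries against 17.04, 18.6 and 17.7 FPKM in the YM155 libraries. No library of either group reached the range of the other. It rose 2.44-fold (log2 fold change 1.18, SE 0.06, adjusted p = 9.8e-08 by limma).

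DUSP10, a phosphatase of p38 and JNK, measured 1.27, 0.796 and 0.796 FPKM in the DMSO libraries against 3.71, 4.63 and 3.78 FPKM in the YM155 libraries. DMSO replicate 1 lay above the other two DMSO libraries but below all YM155 libraries. Its fold was 4.23 (log2 fold change 1.37, SE 0.12, adjusted p = 3.8e-06 by limma). DUSP10 met the level for testing mainly through the YM155 libraries, since only 1 DMSO library reached 1 FPKM. An estimated 20 to 35 fragments per kilobase stood behind its DMSO values, the fewest among the members.

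The 3 inducible nuclear phosphatase genes also rose, by unequal amounts. DUSP4, a nuclear phosphatase induced by ERK signalling, measured 7.20, 7.46 and 7.32 FPKM in the DMSO libraries against 31.5, 33.6 and 31.9 FPKM in the YM155 libraries. The values within each group were close and the groups far apart. The rise was 4.41-fold (log2 fold change 2.00, SE 0.05, adjusted p = 2.1e-09 by limma).

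DUSP1, an immediate early gene whose product acts on p38 and JNK as well as ERK, measured 32.9, 25.6 and 27.7 FPKM in the DMSO libraries against 63.8, 70.0 and 60.1 FPKM in the YM155 libraries. It varied more between replicates than DUSP4 did, without overlap of the groups. The rise was 2.25-fold (log2 fold change 1.15, SE 0.09, adjusted p = 2.4e-06 by limma). Its log2 fold change was lowest, at 0.745, under quantile normalization and passed in every alternative run.

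DUSP2, a nuclear phosphatase best known from activated lymphocytes, measured 9.49, 10.02 and 9.01 FPKM in the DMSO libraries against 13.97, 12.3 and 11.4 FPKM in the YM155 libraries. The lowest YM155 library was still above the highest DMSO library. The 1.32-fold rise (log2 fold change 0.37, SE 0.08, adjusted p = 0.00185 by limma) was the smallest change among the members. Its call ended with upper-quartile scaling (log2 fold change 0.14, adjusted p = 0.132 by limma) and with libraries rescaled to the same sum (0.07, adjusted p = 0.388). Relative to the median of all genes the log2 fold change was 0.34 on the deposited values, 0.34 with upper-quartile scaling and 0.34 with equal sums. It was 0.291 with quantile normalization and 0.176 with a mean FPKM of at least 5. Leaving out each library gave 0.241 to 0.419.

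DUSP14, the small atypical phosphatase, measured 22.9, 21.5 and 21.2 FPKM in the DMSO libraries against 15.5, 16.1 and 13.99 FPKM in the YM155 libraries. All 3 YM155 libraries lay below the DMSO libraries. The fall was 1.44-fold (log2 fold change -0.50, SE 0.06, adjusted p = 5.7e-05 by limma). The log2 fold change was -0.74 with upper-quartile scaling and -0.81 with equal sums, where the median of all genes was also lower. Relative to that median, DUSP14 was at -0.525 on the deposited values, -0.534 with upper-quartile scaling and -0.538 with equal sums. With quantile normalization it was at -0.685, and with a mean FPKM of at least 5 at -0.690.

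The make-up of the phosphatase transcripts shifted towards DUSP5. Summed over the 10 genes, FPKM went from 120 ± 3.93 with DMSO to 729 ± 25.03 with YM155 (SD, n = 3). Without DUSP5 the sums were 112 ± 4.03 and 209 ± 11.7 FPKM, a ratio of 1.87, against 1.25 for the sum of all genes. DUSP5 supplied 6.64 ± 0.308% of the summed FPKM with DMSO and 71.3 ± 0.638% with YM155. The share of DUSP6 went from 23.5 ± 1.19% to 2.00 ± 0.114%, that of DUSP14 from 18.3 ± 0.348% to 2.08 ± 0.0980%, and that of DUSP1 from 23.9 ± 2.32% to 8.86 ± 0.387%. DUSP8 kept a similar share, 4.41 ± 0.359% and 4.48 ± 0.220%, as its level rose about as much as the sum. These shares concern mRNA and say nothing of protein.

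**Figure D3:**
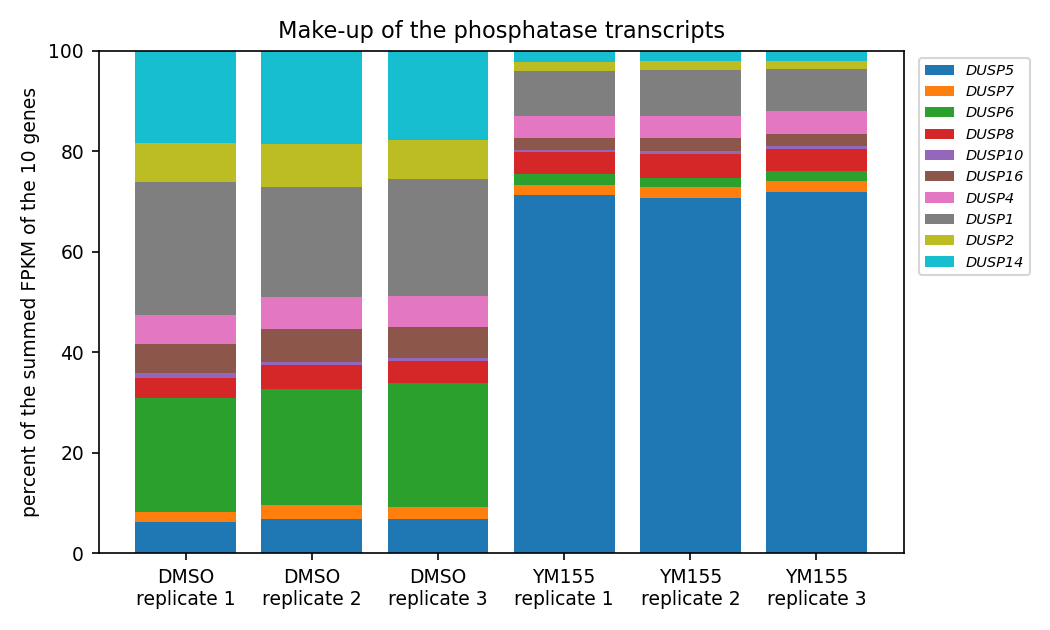
Percent of the summed FPKM of the 10 genes that each contributed, 1 bar per library. DUSP5 takes 6.28% to 6.82% of the DMSO bars and 70.7% to 71.9% of the YM155 bars, where the shares of DUSP6 and DUSP14 are small.

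Set against each other, the ERK-selective and stress-kinase classes gave a contrast that rested on DUSP5. The mean log2(FPKM + 1) of DUSP5, DUSP6 and DUSP7 exceeded that of DUSP8, DUSP10 and DUSP16 by 0.99, 1.12 and 1.16 in the DMSO libraries and by 1.86, 1.72 and 1.82 in the YM155 libraries. The excess was therefore 0.71 larger with YM155. With DUSP5 left out, a choice made after seeing the data, the change had the opposite sign, at -1.03, and with DUSP6 left out it was 2.35. The class mean thus describes no member of the ERK-selective class, and it is given as a description, with no test.

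The ratio of 2 members within a library does not depend on how libraries were scaled. Of the 9 pairs of an ERK-selective with a stress-kinase gene, the 6 without DUSP10 had an FPKM of at least 1 in every library and were tested by an exact two-sided permutation test over libraries. With 3 libraries against 3, the smallest p this test can give is 0.1, so none could pass 0.05. DUSP5 over DUSP8 changed from a log2 ratio of 0.59 ± 0.0810 to 3.99 ± 0.0809 (exact p = 0.1, adjusted over the 6 pairs 0.12). DUSP6 over DUSP8 went from 2.42 ± 0.14 to -1.16 ± 0.15 (exact p = 0.1, adjusted 0.12), that is from 5.33 times the DUSP8 level to 0.447 times. The same directions were seen against DUSP16, where the log2 ratio of DUSP5 went from 0.12 to 4.87 and that of DUSP6 from 1.95 to -0.29, with exact p = 0.1 for each. No libraries of the groups overlapped in these 4 pairs. Against the scarce DUSP10, given without a test, the ratio of DUSP5 rose by 3.92 on the log2 scale, that of DUSP6 fell by 3.06, and that of DUSP7 overlapped between the groups.

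DUSP7 over DUSP8 was the exception. Its log2 ratio was -1.09, -0.83 and -0.93 in the DMSO libraries and -1.02, -1.08 and -1.09 in the YM155 libraries, with overlap between the groups (difference -0.11, exact p = 0.3, adjusted 0.3). In FPKM the factors were 5.69 for DUSP7 and 6.19 for DUSP8, and the overlap does not show that they are equal. DUSP7 over DUSP16 rose from -1.42 ± 0.15 to -0.19 ± 0.0811 (exact p = 0.1, adjusted 0.12). Within the ERK-selective class, DUSP5 went from 0.282 times to 35.6 times the level of DUSP6, and DUSP6 from 10.3 times to 0.933 times the level of DUSP7. Within the stress-kinase class, DUSP8 over DUSP16 moved from 0.724 to 1.84. These within-class ratios are given without a test.

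**Figure D4:**
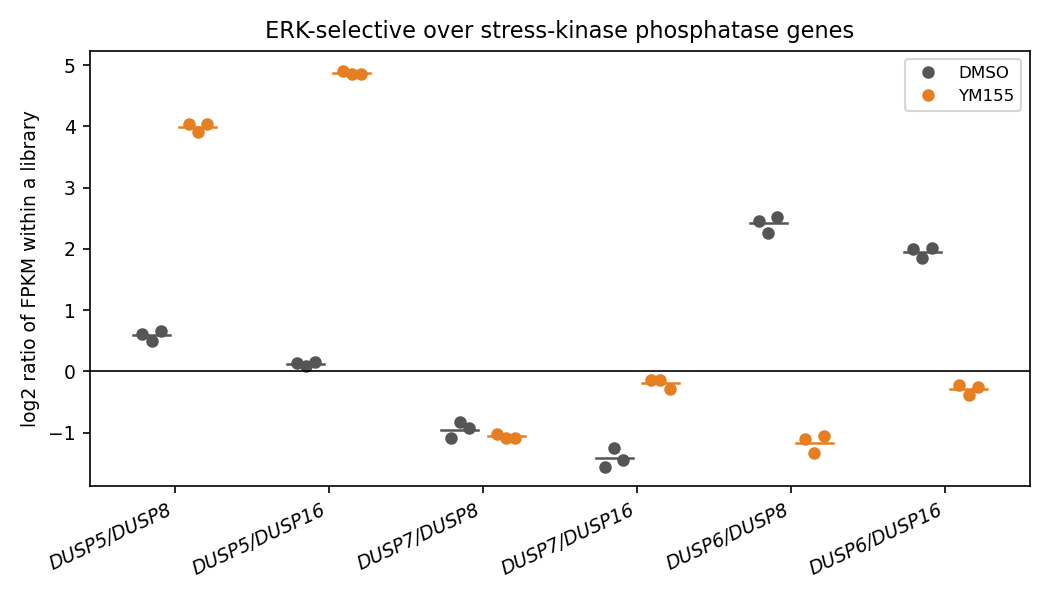
Log2 ratio of FPKM within each library for ERK-selective over stress-kinase genes, 3 DMSO points in grey and 3 YM155 points in orange per pair, with a line at the mean. The pairs with DUSP5 go up, those with DUSP6 go down, and DUSP7 over DUSP8 overlaps between the groups.

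The other genes of the pathway give the surroundings of these changes, and those written as risen or fallen passed limma at an adjusted p under 0.05. Of 16 other dual-specificity phosphatase and related pseudophosphatase genes, 9 were tested: 4 rose, 3 fell and 2 did not pass, with a median log2 fold change of -0.0583. DUSP3, an atypical phosphatase of ERK and JNK, rose 2.15-fold, from 13.5 ± 0.467 to 29.1 ± 0.652 FPKM, and no other gene of that list rose by 1 or more on the log2 scale. DUSP18 rose 1.77-fold and STYXL1 fell 1.44-fold. Of 7 tested genes of other phosphatases that act on the cascades, 6 rose and 1 did not pass. PPP2CB and PPP2CA, the catalytic subunits of protein phosphatase 2A, rose 3.17-fold and 1.81-fold, and PPM1A rose 2.62-fold.

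Of 18 genes of the RAS-RAF-MEK-ERK cascade, 16 rose and 1 fell (median log2 fold change 0.55), and 13, 11 and 12 rose with upper-quartile, equal-sum and quantile scaling. Among those that rose, KSR1 reached the level for testing only through the YM155 libraries. BRAF rose 6.09-fold, from 3.59 ± 0.296 to 21.9 ± 1.23 FPKM, the adaptor gene SHC1 2.75-fold and ARAF 2.08-fold. MAPK3, encoding the kinase ERK1, rose 1.35-fold, and its call ended with equal sums and with quantile normalization. Of 21 tested genes of the JNK and p38 cascades, 11 rose and 6 fell (median 0.49). MAP2K6, an activator of p38, fell 9.25-fold, from 10.6 ± 0.698 to 1.15 ± 0.107 FPKM, while MAP2K7, an activator of JNK, rose 2.58-fold. Of the kinases that DUSP8, DUSP10 and DUSP16 act on, MAPK8 (JNK1) rose 1.63-fold, MAPK9 (JNK2) fell 1.26-fold and MAPK14 (p38 alpha) fell 1.25-fold.

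Of the other feedback and output genes of ERK, which share with DUSP6 a known dependence on this kinase, 12 were tested: 5 rose, 6 fell and 1 did not pass. Among those that fell, ETV1 reached the level for testing only through the DMSO libraries. SPRY2, an inhibitor of receptor signalling, fell 2.49-fold, from 30.9 ± 1.22 to 12.4 ± 0.629 FPKM, whereas PHLDA1 rose 6.85-fold and EPHA2 5.27-fold. SPRY1, of the same family as SPRY2, did not pass, with a mean of 7.39 FPKM under DMSO against 8.08 FPKM under YM155 (adjusted p = 0.205 by limma). The immediate early genes were divided as well, with 7 of 15 higher and 6 lower. ATF3, a stress-induced factor of the ATF family, rose 11.05-fold, the AP-1 gene FOSL1 rose 7.84-fold, and EGR1, an early growth response factor, fell 4.58-fold from 187 ± 16.1 to 40.8 ± 8.80 FPKM. JUN, the most abundant of these genes that did not pass, was at 102 and 106 FPKM (adjusted p = 0.423 by limma), and it was called lower with upper-quartile, equal-sum and quantile scaling, at log2 fold changes of -0.20, -0.27 and -0.38. The median of all genes under these scalings was -0.20, -0.27 and -0.0829, so JUN lay away from the median only under the last. All 9 tested kinases downstream of the mitogen-activated protein kinases rose, MKNK2 the most at 4.41-fold, against 7 with each of those 3 scalings. Of 8 tested EGFR family ligands and receptors, 5 rose and 3 fell, with EREG up 23.02-fold, AREG 7.37-fold and EGFR 6.51-fold. Those that fell were the receptor genes ERBB3 (mean 114 to 57.8 FPKM) and ERBB2 (42.3 to 20.6) and the ligand gene BTC (1.43 to 0.337). BTC reached the level for testing only through the DMSO libraries, where it was higher. Of 4 genes for proteins that bind AU-rich elements, through which short-lived mRNAs are destabilised or stabilised, 3 rose, led by ZFP36 at 3.58-fold. The cause of the members' changes was not tested by these counts, which are read against the 43.6% and 41.0% of all genes that rose and fell.

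**Figure D5:**
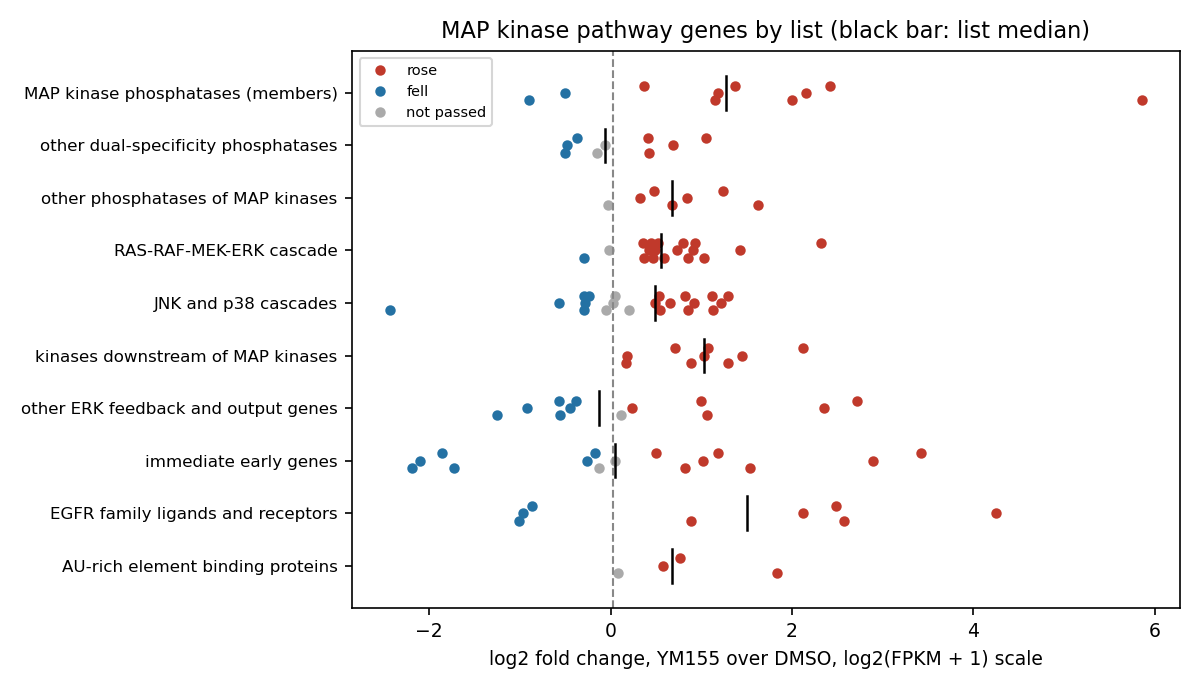
Log2 fold change of every tested gene in the 10 members and in 9 lists of pathway genes, red for genes that rose, blue for genes that fell and grey for those that did not pass, with a black bar at each list's median and a dashed line at the median of all tested genes. The members spread from -0.91 to 5.86 around a median of 1.28.

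Among all tested genes outside the family, those nearest to DUSP5 in their centred log2(FPKM + 1) profile over the 6 libraries were KRT17, DHRS9 and AKR1C1, at Euclidean distances of 0.707, 0.732 and 0.822. For DUSP6 they were SORBS2, IL13RA1 and FAM149B1, at distances of 0.0618 to 0.0759, and for DUSP7 they were PLAU, KLK6 and TUBB2A, at 0.0643 to 0.165. With 2 groups of libraries, such likeness reflects mainly a similar size of change on the log2(FPKM + 1) scale. Folds in FPKM can differ where a transcript is scarce. From DMSO to YM155, mean FPKM went from 0.343 to 4.94 for PLAU, from 1.35 to 0.249 for SORBS2 and from 0.467 to 126 for DHRS9.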

How the data were processed

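mRNA of 3 DMSO and 3 YM155 libraries was made into libraries with a stranded kit, per the labels' protocols. The authors deposited 1 table of FPKM per library; Cuffdiff, Cufflinks 2.2.1, SAMtools 1.2, TopHat2 2.1.1 and Bowtie2 2.3.5.1 are named, with the build hg19, per the submitters' processing notes. Not given in the sources used here are the annotation, the scaling to library size and the use of strand. The treated libraries are titled YM115, and the treatment label reads YM155.

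Genes that reached 1 FPKM in 3 or more of the 6 libraries were compared as log2(FPKM + 1), a scale that understates changes of scarce transcripts, with limma 3.58.1 in R 4.3.3 (trend, two-sided, Benjamini-Hochberg over all tested genes, threshold 0.05). The procedure was tested on simulated data in which few genes changed. Most genes were called in the data themselves, so that test does not bear on the split of calls. Folds are ratios of mean FPKM. FPKM holds no counts, so depth was estimated from the spacing of low values of single-transcript genes in GENCODE release 29, with an assumed fragment length of 200 bases; 59.9% to 66.2% of those values lay within 0.1 of a whole fragment, too few to recover counts.

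Members, classes, gene lists and motifs were chosen with earlier results of these data known. Of each pathway list, the 3 largest called changes and the most abundant gene that did not pass were eligible to be named, with the kinase genes MAPK3, MAPK8, MAPK9 and MAPK14 and the 3 nearest profiles per ERK-selective member; not all are printed. The EGFR family genes that fell are named as well, as are KSR1 and ETV1, which reached the level for testing through 1 group only. Same-numbered libraries did not deviate together from their group means (correlations of -0.071, -0.148 and -0.125), so no replicate block was used. Alternatives were other pseudocounts, filters, scalings, variance models, weights, a replicate block, a threshold of 0.01 and leaving out each library.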

Additional observations from a re-analysis of the deposited data

How the results depend on the processing

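Of the log2 fold changes of single members under the alternatives, 187 kept their direction and side of the threshold, and the other 2 were the lost calls of DUSP2. Other variance models, the replicate block and the threshold of 0.01 leave log2 fold changes as they were and bear only on the calls. The counts of 8 members higher and 2 lower became 7 and 2 after upper-quartile scaling, rescaling to a common sum or a mean FPKM of at least 5 (which drops DUSP10), and did not change otherwise. With the replicate block, 5147 genes rose and 4861 fell, and the member counts stayed at 8 and 2; the shared numbers were not shown to pair the libraries. With a mean FPKM of at least 5, 8575 genes were tested, of which 4419 rose and 2922 fell. Their median log2 fold change was 0.189. The change of the class contrast was 0.55 with a pseudocount of 0.1, 0.53 with quantile normalization, 1.23 against all other members, 0.84 with DUSP1 added to the stress-kinase class, -1.03 without DUSP5, 2.35 without DUSP6 and 0.82 without DUSP7, the last 3 chosen after seeing the data. Leaving out each library gave 0.66 to 0.75. Pathway list counts that changed by more than 1.5 times were other dual-specificity phosphatases (2 higher with rescaling to a common sum; 5 lower with upper-quartile scaling and with rescaling to a common sum), other phosphatases of MAP kinases (1 lower without a filter, and likewise under each of upper-quartile, equal-sum and quantile scaling), the RAS-RAF-MEK-ERK cascade (2 lower with upper-quartile and sum scaling), kinases downstream of MAP kinases (1 lower without a filter and with sum and quantile scaling) and AU-rich element binding proteins (1 lower with sum scaling). Among genes that did not pass, log2 fold changes became -0.20, -0.27 and -0.38 for JUN under upper-quartile, equal-sum and quantile scaling in turn, and -0.21 for both MAP3K10 and ELAVL1 with sum scaling, all called; MAP3K10 was called at 0.24 with quantile normalization. Also called lower were DUSP28 (-0.24 and -0.29) and MAP2K5 (-0.24 and -0.30) with upper-quartile and sum scaling, and PPP2R1B (-0.26, -0.33 and -0.26) with these and quantile normalization. The median of all genes was itself at -0.20, -0.27 and -0.0829 under the 3 scalings. The cause was not tested. The number of libraries, their unstated origin, the lower depth estimated for the YM155 libraries and the low DMSO level of DUSP10 limit precision.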
